A study of Homo sapiens with 8 samples.

Results

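The matrix metalloproteases (MMP), the ADAMTS proteases and the tissue inhibitors of metalloproteases (TIMP) were described in melanomas grown from the established human melanoma line SkMel147. Genes were taken by symbol, as every measured gene named MMP, ADAMTS or TIMP with a number, which gave 43 of 17492 genes (22 MMP, 18 ADAMTS and 3 TIMP genes). TIMP2, ADAMTS7, MMP23A and MMP23B were not analysed here. Tumours grew subcutaneously in BALB/c nude mice, a strain that lacks mature T cells, and the tumour cells of all 8 mice carried an Omomyc transgene that doxycycline switches on. Omomyc is a MYC-derived peptide that blocks MYC from working with its partners. From a tumour size of 100 mm3, mice drank water with doxycycline (4 tumours) or with its vehicle (4 tumours), and tumours were taken after 7 days. Each tumour gave 1 Affymetrix array of human probes, and the labels call the 4 tumours of a group biological replicates. Every tumour comes from the same cell line, no group received doxycycline without the transgene, and Omomyc itself was not measured here. Values are deposited log2 values, so a difference of 1 is a 2-fold change, and the level of one gene's probes cannot be set against another's.

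MMPs are secreted or membrane-bound zinc enzymes that cut collagens, laminins and other proteins of the extracellular matrix, and they are made as inactive precursors. ADAMTS proteases are secreted relatives with thrombospondin repeats, which cut proteoglycans or trim procollagens. TIMPs block the active sites of these enzymes. In melanoma, this system is known for its part in invasion through the basement membrane and in the remodelling of the matrix around the tumour.

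Array medians lay between 5.04 and 5.15, as the quantile step of RMA sets them, and arrays correlated at 0.961 to 0.982 within groups and at 0.933 to 0.955 between groups across genes. Vehicle replicate 2 and doxycycline replicate 4 stood apart from the other arrays on the second principal component (16% of the variance), and on the third (12.3%) doxycycline replicate 1 did so. Calls lost when vehicle replicate 2 is dropped together with doxycycline replicate 1 or 4 are given beside each gene. Of 9 melanocytic markers measured, SOX10, MITF, MIA, PRAME and S100B lay above the dimmest 40% of genes, and the pigment genes MLANA, PMEL, TYR and TYRP1 lay within it. Their mean was 4.53 to 4.80 in vehicle and 4.80 to 4.99 in doxycycline tumours. MIA rose by 1.51 (limma adjusted p = 0.0445), and the other 8 were not called. The call of MIA was lost in 6 of 8 fits with 1 tumour left out. It was also lost without vehicle replicate 2 and doxycycline replicate 1 (0.156). The mean of 9 fibroblast markers was 5.31 to 6.57 in vehicle tumours and 6.74 to 7.91 in doxycycline tumours. None of them was among the dimmest 40%, 4 rose (COL1A1, COL1A2, POSTN and PDGFRA) and 0 fell. POSTN and PDGFRA lost their calls without vehicle replicate 1 (limma adjusted p of 0.0505 and 0.052), POSTN and COL1A2 without vehicle replicate 3 (0.0538 and 0.0564), and COL1A2 without doxycycline replicate 3 (0.0509). Without vehicle replicate 4, POSTN and PDGFRA moved from differences of 3.57 and 2.51 to 4.37 and 3.10. With vehicle replicate 2 and doxycycline replicate 1 both dropped, POSTN (2.79), PDGFRA (1.87), COL1A1 and COL1A2 lost their calls (0.0842, 0.0755, 0.0642 and 0.0790), and with vehicle replicate 2 and doxycycline replicate 4 both dropped PDGFRA and COL1A2 did (0.0735 and 0.0869). THY1, another fibroblast marker, was at -1.05 (limma adjusted p = 0.0844). The mean of 10 macrophage markers was 3.76 to 4.03 in vehicle and 3.98 to 4.75 in doxycycline tumours, with 6 of them among the dimmest 40% and LYZ called as a rise. Of 9 neutrophil markers, 8 were among the dimmest 40%, and FPR1 was the 1 that rose. No endothelial, keratinocyte or lymphocyte marker passed the test (0 of 10, 0 of 7 and 0 of 9, of which 2, 0 and 0 were at an unadjusted limma p under 0.05). In bulk tumours, more cells of a type and more RNA per cell cannot be told apart. The melanoma cells are human and the host's cells are mouse, and human probes can also pick up mouse RNA by cross-hybridisation. Marker values that come from the melanoma cells and from the host's cells therefore cannot be told apart.

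MMP13, MMP19, MMP2, MMP14, ADAMTS4, ADAMTS15 and TIMP1 rose with doxycycline, and MMP1 and ADAMTS14 fell. These were 9 of 43 genes (20.9%) at a limma adjusted p under 0.05 over all genes, where 10.8% of all genes were called. With arrays centred on the ribosomal protein genes, 9 rose and 1 fell, and over all genes 1592 rose and 710 fell in place of 830 and 1054. The 7 that rose were 16.3% of the genes, against 4.75% of all genes, and the 2 that fell were 4.65%, against 6.03%. For 9 of the 43 genes (20.9%) no doxycycline tumour lay within the range of the vehicle tumours, where this held for 17.7% of all genes: 7 lay above it (8.86% of all genes) and 2 below it (8.83%). The difference was above 0 for 23 of the 43, and for 54.2% of all genes. The median difference of the 43 genes was 0.11, beside 0.04 for all genes, so the set did not move as one. Signals were low for many of them, since 28 of the 43 were among the dimmest 40% of genes. With vehicle replicate 2 and doxycycline replicate 4 left out, 6 of the 9 were called, and with vehicle replicate 2 and doxycycline replicate 1 left out, 7 of them and 2 others. With 1 tumour left out, between 5 (when vehicle replicate 3 or one of doxycycline replicates 3 and 4 was dropped) and 9 genes were called, and MMP1, MMP13, MMP2, ADAMTS4 and TIMP1 were called each time.

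**Figure D1:**
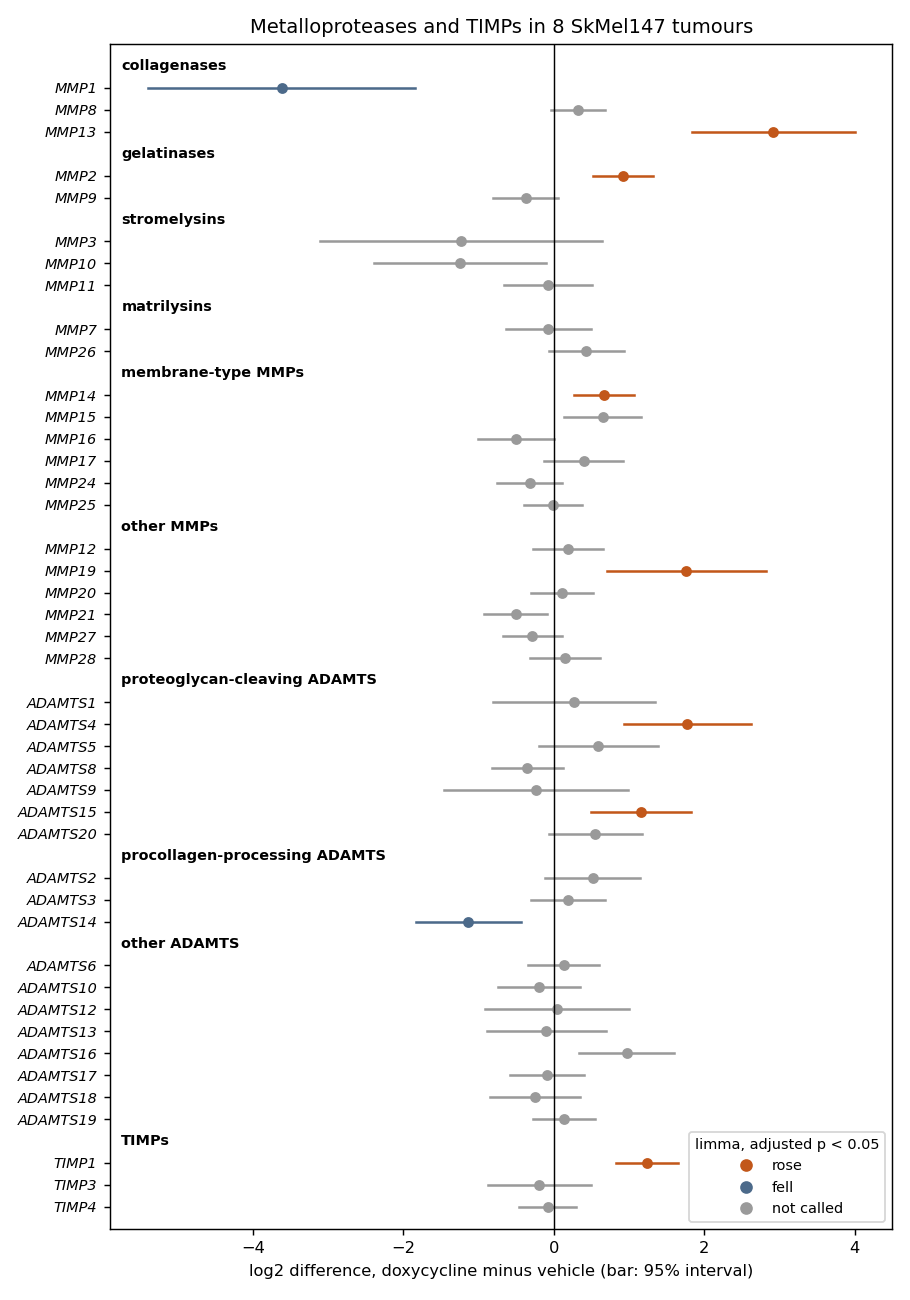
Log2 difference (doxycycline minus vehicle) of the 43 genes, grouped by role, with limma's 95% interval; 4 tumours per group. Coloured points mark the 7 genes that rose and the 2 that fell at an adjusted p under 0.05; MMP13 lies farthest to the right at 2.92 and MMP1 farthest to the left at -3.62.

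The collagenases, which cut the triple helix of fibrillar collagens, moved in opposite directions. MMP1, the interstitial collagenase, was at 7.09, 10.74, 8.42 and 8.18 in vehicle replicates 1 to 4 and at 3.61, 4.45, 4.88 and 7.01 in doxycycline replicates 1 to 4. Every doxycycline tumour lay below every vehicle tumour, but doxycycline replicate 4 came within 0.1 of vehicle replicate 1. MMP1 was 12.3-fold lower with doxycycline, with a log2 difference of -3.62 ± 0.80 (SE; limma adjusted p = 0.0156). Vehicle replicate 2 had the highest value, and dropping it gave a difference of -2.91. Dropping doxycycline replicate 4 gave -4.29, and dropping both vehicle replicate 2 and doxycycline replicate 1 gave -2.45, all still called. The call was lost with a trended and robust prior (adjusted p = 0.0625).

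MMP13, the collagenase best known from cartilage and bone, was the reverse. It was at 3.01, 3.80, 3.19 and 3.05 in vehicle replicates 1 to 4 and at 4.67, 7.11, 7.17 and 5.75 in doxycycline replicates 1 to 4. The groups did not overlap, and doxycycline replicate 1 was the lowest of its group. Vehicle replicates 1, 3 and 4 lay near the lower quartile of their arrays (3.05 to 3.09). With so low a signal in the vehicle group, the size of the fold change is uncertain. MMP13 was 7.55-fold higher with doxycycline, by 2.92 ± 0.49 (SE; limma adjusted p = 0.00362), and by 3.60 without vehicle replicate 2 and doxycycline replicate 1. Of the fibroblast markers 4 of 9 rose, and the mean of that list was higher in every doxycycline tumour than in any vehicle tumour. Of the macrophage markers 1 of 10 rose, and the ranges of their mean overlapped. The part of these cell types in the rise of MMP13 was not tested. MMP8, the neutrophil collagenase, was low throughout, at 3.07 to 3.29 in vehicle and 3.30 to 3.67 in doxycycline tumours. The groups only just did not overlap, and the difference of 0.32 did not pass (95% interval -0.04 to 0.68, limma adjusted p = 0.271).

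**Figure D2:**
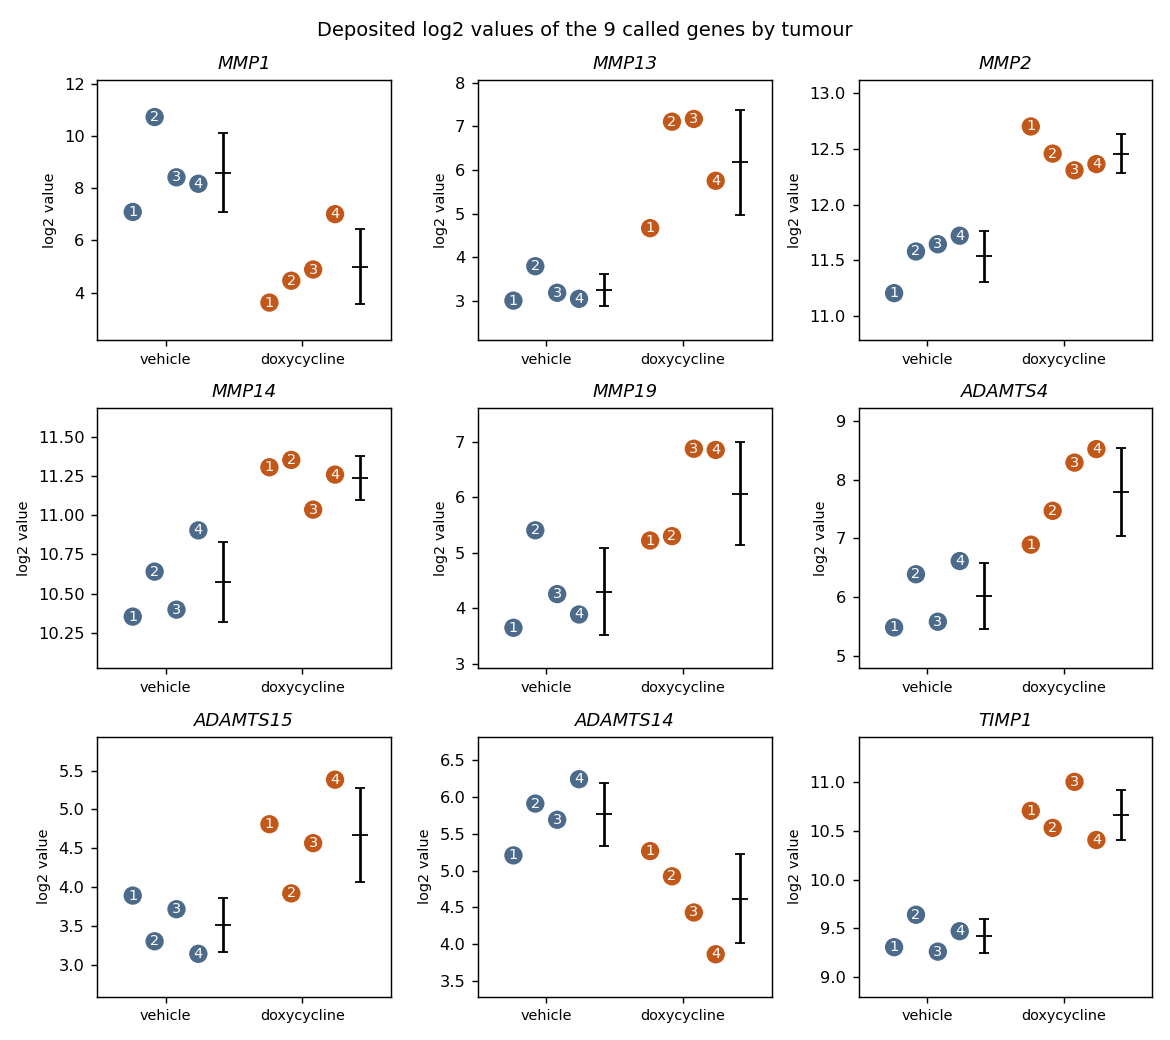
Deposited log2 value of the 9 called genes in each tumour; each numbered circle is 1 tumour, labelled by its replicate number, and the bar beside it is the mean ± SD (n = 4). Each panel has its own axis, which does not start at 0. The groups do not overlap for MMP1, MMP13, MMP2, MMP14, ADAMTS4, ADAMTS15 and TIMP1, and they do for MMP19 and ADAMTS14.

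MMP2, its activator MMP14 and the inhibitor TIMP1 all rose. MMP2, the gelatinase that cuts basement membrane collagen, was at 11.21, 11.58, 11.65 and 11.72 in vehicle replicates 1 to 4 and at 12.70, 12.46, 12.31 and 12.36 in doxycycline replicates 1 to 4. The doxycycline tumours were all above the vehicle tumours. MMP2 was 1.89-fold higher, by 0.92 ± 0.18 (SE; limma adjusted p = 0.00904). MMP9, the other gelatinase, averaged 3.95 ± 0.31 with vehicle and 3.57 ± 0.15 with doxycycline (SD, n = 4). Its groups overlapped, and the difference of -0.38 did not pass (95% interval -0.81 to 0.06, limma adjusted p = 0.278).

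MMP14, the membrane-type protease that activates MMP2 at the cell surface, was at 10.35, 10.64, 10.40 and 10.90 in vehicle replicates 1 to 4 and at 11.31, 11.35, 11.04 and 11.26 in doxycycline replicates 1 to 4. The groups did not overlap. The difference of 0.66 ± 0.18 (SE), or 1.59-fold, passed narrowly (limma adjusted p = 0.0410) and was between 0.59 and 0.77 with 1 tumour left out. Its call was lost without vehicle replicate 1, 2 or 3 (limma adjusted p of 0.118, 0.0583 and 0.114) and without doxycycline replicate 1, 2, 3 or 4 (0.0835, 0.106, 0.0549 and 0.0816). It was also lost with either pair of tumours left out (vehicle replicate 2 with doxycycline replicate 4, 0.0994, or with doxycycline replicate 1, 0.0979). Of the other 5 membrane-type MMPs none passed. MMP15 was at 0.65 ± 0.23 (SE; limma adjusted p = 0.111) and passed without doxycycline replicate 1 (0.0242) and after centring on the ribosomal protein genes (0.0357). MMP16 was at -0.50 ± 0.23 (SE; adjusted p = 0.205), so members of the family pointed both ways.

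TIMP1, a secreted inhibitor of most MMPs, had the smallest p of the 43 genes. It was at 9.31, 9.64, 9.26 and 9.47 in vehicle replicates 1 to 4 and at 10.71, 10.53, 11.002 and 10.41 in doxycycline replicates 1 to 4. The lowest doxycycline tumour was above the highest vehicle tumour by more than the whole range of the vehicle group. TIMP1 was 2.37-fold higher, by 1.24 ± 0.19 (SE; limma adjusted p = 0.00191), and passed under all 18 alternatives. The part of the fibroblast markers, which also differed between the groups, was not tested. TIMP3, the inhibitor that stays bound to the matrix, averaged 8.75 ± 0.29 with vehicle and 8.56 ± 0.66 with doxycycline (SD, n = 4), with overlapping groups (difference -0.19, 95% interval -0.87 to 0.49, limma adjusted p = 0.777). TIMP4 was at 3.50 ± 0.18 and 3.42 ± 0.15 (SD, n = 4; difference -0.08, 95% interval -0.46 to 0.30, limma adjusted p = 0.834). The intervals of TIMP3 and TIMP4 lie below the rise of TIMP1, but the difference between the inhibitors was not tested.

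The promoters of 4 genes are shown because TIMP1 and MMP14 rose, ADAMTS14 fell, and MMP10 neighbours MMP1 and holds a match to the motif of AP-1, the transcription factor pair of FOS and JUN proteins best known as a driver of MMP genes. Each run is the 250 bases before the gene's start on its own strand, 5′ to 3′, from RefSeq (GRCh38.p14): chrX:47582186-47582435 (TIMP1, plus strand), chr14:22836335-22836584 (MMP14, plus strand), chr10:70672256-70672505 (ADAMTS14, plus strand) and chr11:102780629-102780878 (MMP10, minus strand). Capitals mark a match on either strand to 1 of 4 motifs: a loose form of the AP-1 site, the E-box that MYC binds, the TATA box and the GC box.
TIMP1: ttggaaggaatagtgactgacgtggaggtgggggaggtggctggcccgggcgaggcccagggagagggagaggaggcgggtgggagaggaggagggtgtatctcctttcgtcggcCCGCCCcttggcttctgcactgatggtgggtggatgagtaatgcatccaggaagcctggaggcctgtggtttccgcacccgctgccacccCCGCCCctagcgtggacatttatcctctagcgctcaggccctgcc
MMP14: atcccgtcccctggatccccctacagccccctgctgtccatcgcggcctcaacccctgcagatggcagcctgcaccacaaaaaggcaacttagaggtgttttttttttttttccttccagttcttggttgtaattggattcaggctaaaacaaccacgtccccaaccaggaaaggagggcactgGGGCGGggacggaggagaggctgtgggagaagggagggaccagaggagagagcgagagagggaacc
ADAMTS14: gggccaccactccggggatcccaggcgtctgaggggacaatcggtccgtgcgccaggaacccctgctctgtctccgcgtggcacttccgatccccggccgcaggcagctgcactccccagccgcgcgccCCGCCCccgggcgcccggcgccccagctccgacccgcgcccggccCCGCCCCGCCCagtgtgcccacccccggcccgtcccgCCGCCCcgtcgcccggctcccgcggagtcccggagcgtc
MMP10: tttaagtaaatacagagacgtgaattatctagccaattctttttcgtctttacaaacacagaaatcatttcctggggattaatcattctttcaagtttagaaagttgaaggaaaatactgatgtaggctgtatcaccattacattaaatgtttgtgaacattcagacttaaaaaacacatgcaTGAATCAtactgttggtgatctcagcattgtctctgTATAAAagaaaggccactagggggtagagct

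The runs of TIMP1, MMP14 and ADAMTS14 hold 2, 1 and 4 GC boxes, of which 2 in ADAMTS14 share a base. They hold no match to the letters searched for the other motifs, and sites that depart from those letters would be missed. MMP10 holds TGAATCA at 67 to 61 bases and a TATA box at 31 to 26 bases before its start. The letters searched for AP-1 were TGANTCA. Those searched for the E-box were CACGTG, which reads the same on both strands. For the other motifs they were TATAAA for the TATA box, and for the GC box GGGCGG. RefSeq promoters were matched for 25 of the 43 genes. MMP1, MMP13, MMP2, MMP19, ADAMTS4 and ADAMTS15 were not among them, so of the called genes only TIMP1, MMP14 and ADAMTS14 could be searched. The loose AP-1 motif was in 4 of the 25 (MMP7, MMP10, MMP20 and ADAMTS12), or 16%, against 6.6% of the promoters of 27305 genes. The E-box was in 3 (MMP21, ADAMTS6 and ADAMTS17), or 12%, against 6.49%. No gene found with the AP-1 motif or the E-box was called, but most of the called genes could not be searched. A TATA box was in 28% against 11.1%, and a GC box in 68% against 42.3%. These are matches of letters in a short window, with no measurement of binding.

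The stromelysins cut proteoglycans, laminin and the precursors of other MMPs, and none of the 3 passed (1 was at an unadjusted limma p under 0.05). MMP10 was at 2.61, 5.48, 2.76 and 3.74 in vehicle replicates 1 to 4 and at 2.47, 2.40, 2.30 and 2.46 in doxycycline replicates 1 to 4. All doxycycline tumours were below all vehicle tumours, and the vehicle tumours were widely spread. Its difference of -1.24 ± 0.52 (SE) did not pass (limma adjusted p = 0.169) and was -0.63 without vehicle replicate 2. MMP3 was at 1.91, 6.40, 3.34 and 2.18 in vehicle replicates 1 to 4 and at 2.07, 1.34, 2.04 and 3.44 in doxycycline replicates 1 to 4. Its groups overlapped, and the difference of -1.24 ± 0.85 (SE; limma adjusted p = 0.429) was -0.26 without vehicle replicate 2. In the vehicle group that tumour was the highest for MMP1, MMP3 and MMP10 alike, and also for MMP13, MMP19 and TIMP1, which rose.

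MMP1, MMP3, MMP10 and MMP13 lie on chromosome 11 in a run of 9 MMP genes, per the RefSeq gene table. In chromosome order, the differences were -0.07 for MMP7, 0.11 for MMP20, -0.29 for MMP27, 0.32 for MMP8, -1.24 for MMP10, -3.62 for MMP1, -1.24 for MMP3, 0.19 for MMP12 and 2.92 for MMP13. The largest fall and the largest rise of the 43 genes thus lay 3 places apart, and 7 of the 9 genes were among the dimmest 40%. Of the 5 nearest measured protein-coding genes on either side, TMEM123 fell, by 0.76 ± 0.20 (SE; limma adjusted p = 0.0319), and the other 9 did not pass. TMEM123 lost its call without vehicle replicate 2, 3 or 4 (limma adjusted p of 0.0679, 0.0947 and 0.0618) without doxycycline replicate 2, 3 or 4 (0.0635, 0.0702 and 0.0797), after centring on the ribosomal protein genes (0.135), and with vehicle replicate 2 dropped together with doxycycline replicate 1 (0.0625) or 4 (0.128). The transcribed pseudogene WTAPP1 overlaps MMP1 in that table, and whether the probes tell them apart is not known here.

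**Figure D3:**
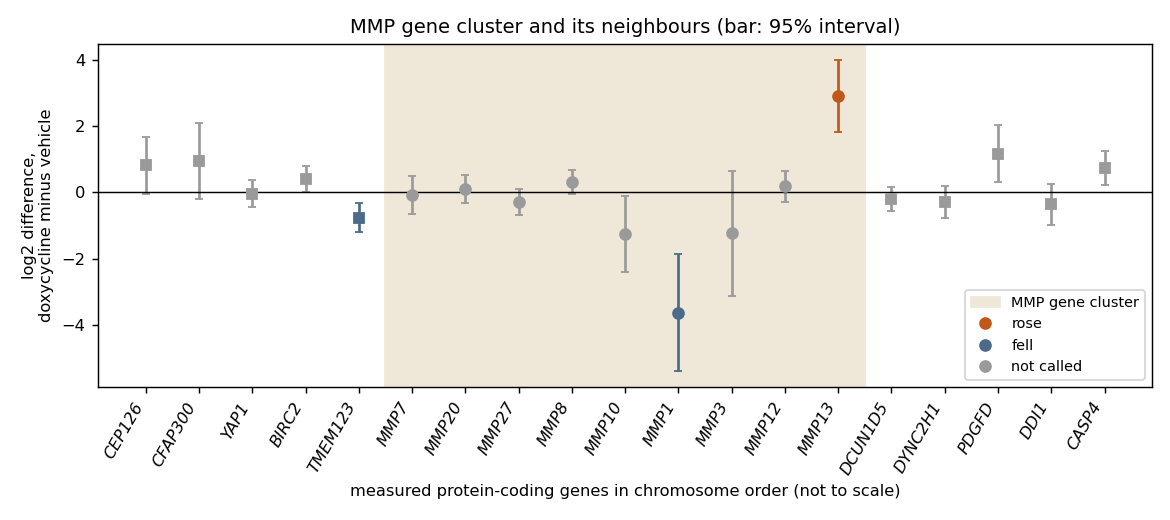
Log2 difference (doxycycline minus vehicle) with limma's 95% interval for the 9 genes of the MMP cluster (shaded) and the 5 nearest measured protein-coding genes on either side, in chromosome order and not to scale. MMP1 at -3.62 and MMP13 at 2.92 are the called genes within the cluster, and TMEM123 at -0.76 is the called gene outside it.

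Of the 6 remaining MMPs, MMP19 rose. MMP19, a protease of basement membrane proteins, was at 3.65, 5.41, 4.26 and 3.89 in vehicle replicates 1 to 4 and at 5.22, 5.30, 6.88 and 6.86 in doxycycline replicates 1 to 4. Vehicle replicate 2 lay above doxycycline replicates 1 and 2, so the groups overlapped. The difference was 1.76 ± 0.48 (SE; 3.39-fold, limma adjusted p = 0.0381), and 2.41 without vehicle replicate 2 and doxycycline replicate 1. The call was lost without vehicle replicate 1, 3 or 4 (limma adjusted p of 0.110, 0.0921 and 0.0975) and without doxycycline replicate 3 or 4 (0.102 and 0.0927). MMP12, MMP20, MMP21, MMP27 and MMP28 did not pass, with differences from -0.51 (MMP21) to 0.19 (MMP12), and neither did the matrilysins MMP7 (-0.07) and MMP26 (0.43).

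Of the 7 ADAMTS proteases that cut proteoglycans, ADAMTS4 and ADAMTS15 rose. ADAMTS4, an aggrecanase, was at 5.48, 6.39, 5.58 and 6.61 in vehicle replicates 1 to 4 and at 6.89, 7.47, 8.29 and 8.52 in doxycycline replicates 1 to 4. The groups did not overlap, and the difference of 1.78 ± 0.38 (SE; 3.42-fold, limma adjusted p = 0.0136) passed under all 18 alternatives. ADAMTS15, which cuts versican and aggrecan, was at 3.89, 3.31, 3.72 and 3.15 in vehicle replicates 1 to 4 and at 4.81, 3.92, 4.57 and 5.38 in doxycycline replicates 1 to 4. Doxycycline replicate 2 was almost level with vehicle replicate 1. The difference was 1.15 ± 0.30 (SE; 2.23-fold, limma adjusted p = 0.0324), and the gene lay among the dimmest 40%. Its call was lost without vehicle replicate 2, 3 or 4 (limma adjusted p of 0.0742, 0.0621 and 0.0893) and without doxycycline replicate 1, 3 or 4 (0.0713, 0.0635 and 0.0679). It was also lost with array weights (0.0523) and with vehicle replicate 2 left out together with doxycycline replicate 4 (0.123) or 1 (0.124). ADAMTS8, which neighbours ADAMTS15, was at -0.35 ± 0.21 (SE; limma adjusted p = 0.359). ADAMTS1 and ADAMTS5, another pair of neighbours, were at 0.27 ± 0.49 and 0.59 ± 0.36 (SE; limma adjusted p of 0.808 and 0.361), and ADAMTS5 passed without doxycycline replicate 1 (0.0388).

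The 3 ADAMTS proteases that trim procollagens included the other fall. ADAMTS14 was at 5.21, 5.91, 5.69 and 6.24 in vehicle replicates 1 to 4 and at 5.26, 4.92, 4.43 and 3.87 in doxycycline replicates 1 to 4. Doxycycline replicate 1 lay just above vehicle replicate 1, so the groups overlapped. The difference was -1.14 ± 0.32 (SE; 2.20-fold lower, limma adjusted p = 0.0426). The call was lost without vehicle replicate 2, 3 or 4 (limma adjusted p of 0.0895, 0.0907 and 0.111), without doxycycline replicate 2, 3 or 4 (0.0619, 0.104 and 0.0898), with vehicle replicate 2 and doxycycline replicate 4 both dropped (0.1505), after quantile normalization (0.0519) and after centring on the ribosomal protein genes (0.0953). ADAMTS2 and ADAMTS3, which do the same task, were at 0.51 ± 0.29 and 0.18 ± 0.22 (SE; limma adjusted p of 0.317 and 0.687).

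None of the 8 other ADAMTS genes passed, and 1 was at an unadjusted limma p under 0.05. ADAMTS6 averaged 8.38 ± 0.29 with vehicle and 8.50 ± 0.29 with doxycycline (SD, n = 4), with a difference of 0.13 (95% interval -0.34 to 0.60, limma adjusted p = 0.783). ADAMTS12 was at 6.08 ± 0.07 and 6.12 ± 1.09 (SD, n = 4), so its mean was level and its spread was wide in the doxycycline tumours, from 4.86 in replicate 1 to 7.51 in replicate 3. ADAMTS16 was at 0.97 ± 0.29 (SE) and missed the threshold (limma adjusted p = 0.0547). Without doxycycline replicate 2 it passed (0.0300), as it did after centring on the ribosomal protein genes (0.0254), with dim genes left out (0.0327) and with a prior that was trended and robust (0.0430). The 27 MMP and ADAMTS genes left were not called, had overlapping groups and were not among those set for full description. Their differences ran from -1.24 (MMP3) to 0.97 (ADAMTS16), 13 above and 14 below 0.

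Genes that act with these proteases were read from lists of 108 measured genes, of which 16 rose and 9 fell (23.1%, beside 10.8% of all genes), or 24 and 5 after centring on the ribosomal protein genes. Without vehicle replicate 2 and doxycycline replicate 4, 16 of them were called. The lists were chosen with earlier results of these data known, so their shares describe the lists and are no independent test. Of 18 measured matrix substrates, 8 rose and none fell (4.75% and 6.03% of all genes did), with a median of 0.93. FN1, the fibronectin gene, rose by 1.501 ± 0.199 (SE), SPARC, a collagen-binding glycoprotein, by 1.22 ± 0.18 (SE), and COL5A1, a fibrillar collagen chain, by 1.26 ± 0.23 (SE); their limma adjusted p were 0.000853, 0.00191 and 0.00595. COL1A1 and COL1A2, the chains of the collagen that MMP1 and MMP13 cut, rose by 1.25 ± 0.28 and 0.92 ± 0.21 (SE; limma adjusted p of 0.0150 and 0.0183), and COL1A2 lost its call without vehicle replicate 3 or doxycycline replicate 3 (0.0564 and 0.0509). With vehicle replicate 2 and doxycycline replicate 1 both dropped, COL1A1, COL1A2 and THBS1 lost their calls (0.0642, 0.0790 and 0.0557), and with vehicle replicate 2 and doxycycline replicate 4 both dropped COL1A2 and THBS1 did (0.0869 and 0.0760). The 3 others that rose were COL4A1 (1.41), COL4A2 (1.02) and THBS1 (1.26). COL4A2 lost its call without vehicle replicate 1 or 3 (limma adjusted p of 0.0803 and 0.0792) and without doxycycline replicate 1 or 2 (0.0620 and 0.0750). COL1A1 and COL1A2 are also in the fibroblast list, whose mean is given above for both groups; its part in the substrates' rise was not tested.

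Of 10 measured genes listed as other inhibitors and clearance receptors, 4 rose and none fell, where 4.75% and 6.03% of all genes did. The list is broad: of those 4, RECK is the inhibitor of MMPs and LRP1 the clearance receptor. PCOLCE, an enhancer of procollagen trimming that carries a TIMP-like domain, rose by 1.31 ± 0.19 (SE), CST3, the cysteine protease inhibitor cystatin C, by 1.22 ± 0.24 (SE) and LRP1, the receptor that takes up MMPs and TIMPs, by 1.06 ± 0.23 (SE); their limma adjusted p were 0.00144, 0.00816 and 0.0147. LRP1 lost its call with vehicle replicate 2 and doxycycline replicate 1 both dropped (0.0517). RECK, a membrane-anchored inhibitor of MMPs, rose by 0.72 ± 0.19 (SE; limma adjusted p = 0.0328). RECK lost its call without vehicle replicate 1, 3 or 4 (0.0874, 0.0969 and 0.0578) and without doxycycline replicate 2, 3 or 4 (0.0729, 0.0708 and 0.0808), with a prior that was trended and robust (0.0577), and with vehicle replicate 2 and doxycycline replicate 4 both dropped (0.0680).

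In the lists that follow, the share of genes called was near the 10.8% of all genes. It was 7.14% for activators of MMP precursors and 12.5% for ADAMTS-like and other matrix metalloenzymes. For ADAM proteases it was 8.33%, and for cell surface partners 13.3%. Of 14 measured activators of MMP precursors, PLAT, the tissue plasminogen activator, was the 1 that rose, by 1.72 ± 0.29 (SE; limma adjusted p = 0.00341). Of 16 ADAMTS-like and other matrix metalloenzymes, BMP1, which trims procollagens at the other end from ADAMTS2, and PAPLN, the papilin gene, rose by 1.35 ± 0.23 and 1.22 ± 0.25 (SE; limma adjusted p of 0.00378 and 0.0108). PAPLN lost its call with vehicle replicate 2 and doxycycline replicate 4 both dropped (0.0540). Of 12 ADAM proteases, the membrane-bound relatives of ADAMTS, ADAM15 fell by 0.82 ± 0.22 (SE; limma adjusted p = 0.0365). That call was lost without vehicle replicate 1, 2 or 4 (0.0935, 0.0806 and 0.0953) without doxycycline replicate 1, 3 or 4 (0.0834, 0.0946 and 0.0700), after centring on the ribosomal protein genes (0.0983), with array weights (0.0548), and with vehicle replicate 2 dropped together with doxycycline replicate 1 (0.140) or 4 (0.125). Of 15 cell surface partners, the tetraspanin gene CD82 rose by 1.09 ± 0.21 (SE; limma adjusted p = 0.00859) and ITGA2, a subunit of a collagen receptor, fell by 1.05 ± 0.23 (SE; limma adjusted p = 0.0151). ITGA2 lost its call after centring on the ribosomal protein genes (0.0689) and with vehicle replicate 2 and doxycycline replicate 4 both dropped (0.0688).

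Of 23 measured inducers of MMP transcription, 7 fell and none rose, where 6.03% and 4.75% of all genes did. The list did not move as one, with 11 differences above 0, 12 below and a median of -0.13. After centring on the ribosomal protein genes, OSM and HBEGF lost their calls (limma adjusted p of 0.149 and 0.0570). NFKB1, a subunit of NF-kappaB, fell by 1.64 ± 0.24 (SE), IL1A, interleukin 1 alpha, by 2.35 ± 0.39 (SE) and FOSL1, the AP-1 subunit FRA1, by 1.84 ± 0.37 (SE); their limma adjusted p were 0.00148, 0.00329 and 0.0100. The other 4 were IL1B, HBEGF, ETS2 and OSM. The AP-1 genes FOS, FOSB, FOSL2, JUN, JUNB and JUND did not pass, with differences from -0.29 (FOS) to 0.44 (JUND). IL1A was at 4.90, 7.12, 5.39 and 5.92 in vehicle replicates 1 to 4 and at 3.59, 3.31, 3.52 and 3.53 in doxycycline replicates 1 to 4. IL1B was at 9.94, 12.16, 9.86 and 10.95 in vehicle replicates 1 to 4 and at 5.26, 2.22, 4.99 and 9.67 in doxycycline replicates 1 to 4. HBEGF, a ligand of the EGF receptor, was at 6.90, 8.28, 6.97 and 7.11 in vehicle replicates 1 to 4 and at 4.84, 5.79, 6.66 and 6.02 in doxycycline replicates 1 to 4. Vehicle replicate 2 was the highest of its group for IL1A, IL1B and HBEGF, as it was for MMP1, MMP3 and MMP10. Of the other inducers that fell, it was the highest for NFKB1, not the highest for ETS2 or OSM, and the lowest for FOSL1. Among genes that rose, it was the highest vehicle tumour for MMP13, MMP19 and TIMP1, but not for MMP2, MMP14, ADAMTS4 or ADAMTS15. The trait was thus not particular to genes that were lower with doxycycline. Doxycycline replicate 4 was the highest of its group for IL1B, MMP1 and MMP3, but not for MMP10, IL1A or HBEGF. These 6 genes were set side by side after their values were seen, and vehicle replicate 2 also stands apart over all genes. The call of IL1B was lost without vehicle replicate 2 or 4 or doxycycline replicate 3 (limma adjusted p of 0.0578, 0.0516 and 0.0570). Its difference of -5.19 became -4.09 when doxycycline replicate 2 was dropped and -6.57 when replicate 4 was. HBEGF lost its call in 7 of 8 fits with 1 tumour left out, all but that without doxycycline replicate 3 (limma adjusted p up to 0.0842). OSM lost it without vehicle replicate 1 or 4 or doxycycline replicate 2 or 4 (0.0719, 0.0604, 0.0675 and 0.0615). With a prior that was trended and robust, IL1B and OSM lost their calls (0.0921 and 0.0685). With vehicle replicate 2 and doxycycline replicate 1 both dropped, IL1B and HBEGF did (0.0978 and 0.0738), at -4.63 and -0.84. With vehicle replicate 2 and doxycycline replicate 4 both dropped, HBEGF, ETS2 and OSM did (0.105, 0.0503 and 0.0784), and IL1B was at -6.10.

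**Figure D4:**
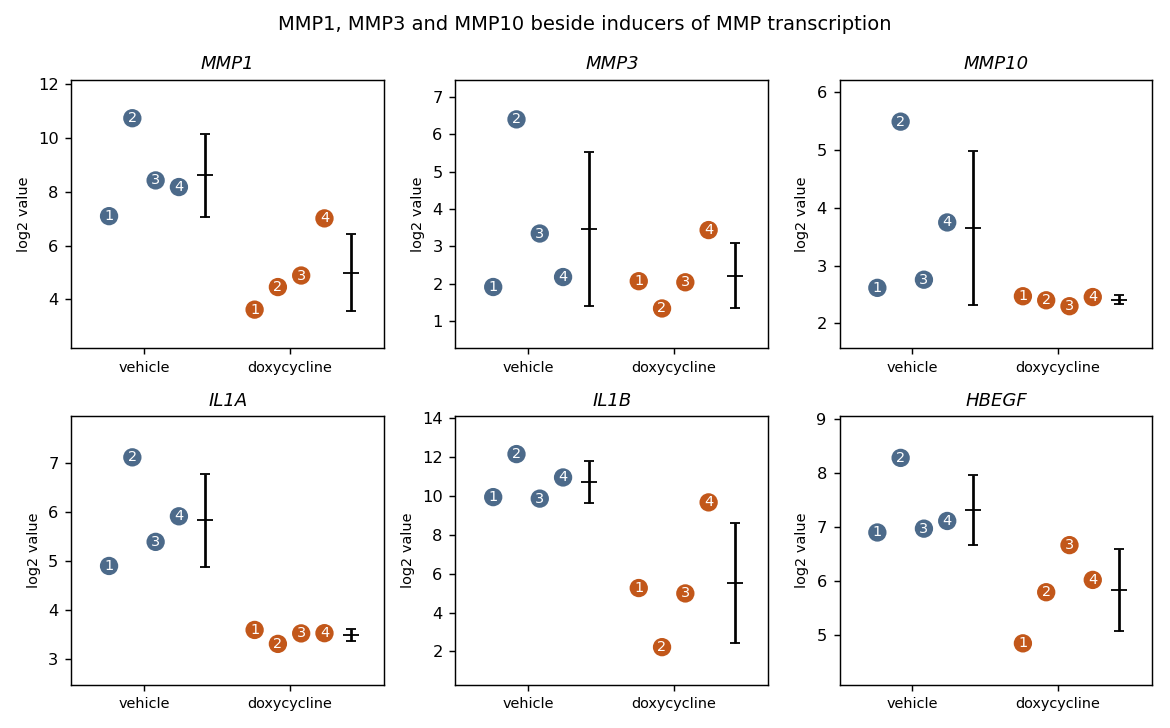
Deposited log2 values of MMP1, MMP3 and MMP10 and of the inducers IL1A, IL1B and HBEGF in each tumour; each numbered circle is 1 tumour, labelled by its replicate number, and the bar beside it is the mean ± SD (n = 4). Each panel has its own axis, which does not start at 0. Vehicle replicate 2 is the highest vehicle tumour in all 6 panels, which were chosen after the values were seen. It is the lowest vehicle tumour for FOSL1, a called inducer that is not shown.

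**Figure D5:**
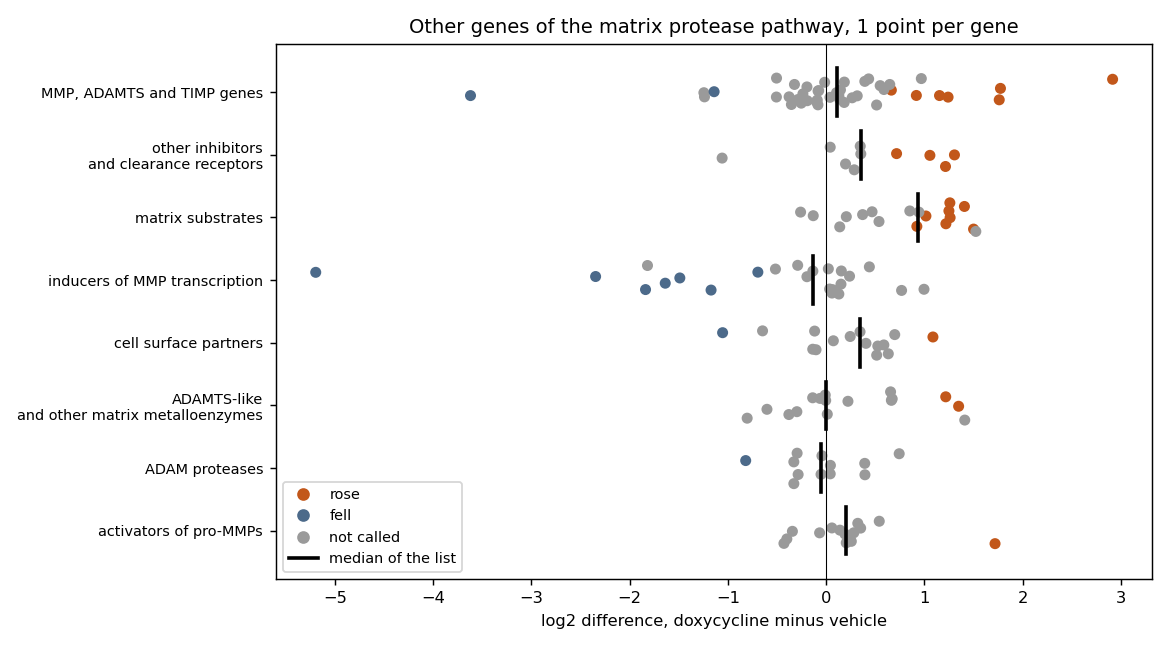
Log2 difference (doxycycline minus vehicle) of each measured gene of the 7 lists and of the 43 MMP, ADAMTS and TIMP genes, 1 point per gene, spread vertically for legibility; black bars are medians. Among matrix substrates 8 of 18 rose, and among inducers of MMP transcription 7 of 23 fell.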

How the data were processed

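Each of the 8 tumours gave total RNA for 1 Affymetrix array. The deposited values are log2 and come from RMA, per the submitters' processing notes: background is subtracted, probes are quantile-normalised across arrays, and each row gets 1 value. This partly removes a shift shared by most genes. Software versions, probe definition and filters: not given in the sources used here; no scanner values were used. Of 18569 rows, 17511 had 1 symbol in the platform annotation, 0 had several and 1058 had none. Where a gene had several rows (17 genes, none of the 43), the one with the highest mean was kept, giving 17492 genes. The titles give each sample's group.

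The groups were compared with limma 3.58.1 (lmFit, eBayes; R 4.3.3), two-sided. Adjusted p follow Benjamini-Hochberg across all genes, with calls under 0.05 and 95% intervals; the procedure was tested on simulated data. Genes described in full were those called, those whose groups do not overlap, the TIMPs, the 3 brightest MMP and ADAMTS genes, MMP2, MMP9 and MMP14, and up to 3 called genes per list; any other was named after its values were seen. The genes, roles and lists were chosen with earlier results of these data known. The alternatives tried were quantile normalization; centring on array medians or on 45 ribosomal protein genes; dropping the dimmest 40%; a prior both trended and robust; weighting arrays; blocking on replicate number; averaging a gene's rows; and dropping each tumour. Dropping 2 pairs of tumours was added after seeing the data. Coordinates are given for the promoters shown, whose genome build is named, and not for genes placed by the gene table, for which no build is named. Figures were drawn in Python 3.11.15.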

Additional observations from a re-analysis of the deposited data

Results flagged for a closer look

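In the doxycycline group, ADAMTS20 was at 3.00 in replicate 3 and at 1.71 to 1.89 in the other 3 tumours, a gap to the nearest tumour of 0.859 of the group's range. ADAMTS20 lay among the dimmest genes, and it was the 1 value set apart in this way among 86 sets of 4 tumours examined (43 genes in 2 groups), where chance alone sets apart about 5%.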

How the results depend on the processing

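Of 9 genes called, 5 were called with the replicate number as a block (4 of 7 rises and 1 of 2 falls). The labels state no pairing of equal-numbered tumours. Their deviations correlated at -0.157 to 0.0345 across genes, which cannot show whether some genes shared a batch. With 1 tumour left out, 5 to 9 genes were called, 4 to 7 rose and 1 to 2 fell. With quantile normalization, with arrays centred on ribosomal protein genes, with a trended and robust prior, or without vehicle replicate 2 and doxycycline replicate 4, 1 fell. Of the list genes, 25 were called, 16 without that pair (4 falls in place of 9), 20 to 27 with 1 tumour left out (5 to 9 falls, 13 to 19 rises), and 5 fell with centring on ribosomal protein genes. Over all genes, 1252 to 1760 were called with 1 tumour left out (503 to 727 rises, 748 to 1057 falls); rises numbered 502 with the block and 1592 with centring on ribosomal protein genes, which moved the median of all genes from 0.04 to 0.25. Among the 56 genes followed under the alternatives, signs turned for 4 that were not called. TIMP3 and TIMP4 were at 0.021 and 0.13 with that centring. With 1 tumour left out TIMP3 ranged from -0.48 to 0.050, ADAMTS12 from -0.42 to 0.46 and ADAMTS1 from -0.13 to 0.71. That centring shifts the differences of all genes alike. Genes just below 0 that were not followed, such as MMP7 (-0.07), MMP11 (-0.08) and MMP25 (-0.01), therefore turned with it too. The causes were not tested. Of 994 values of 56 genes under up to 18 alternatives, 858 kept their direction and side of the threshold. The number of arrays, and signals near the bottom of the range for 28 of the 43 genes, limit the precision.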
